A study of Mus musculus with 6 samples.

Results

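Integrins and laminins were taken as the protein-coding genes named Itga or Itgb plus 1 subunit number or letter and those named Lama, Lamb or Lamc plus a number. The rule found 36 genes among the 55769 features measured: 17 integrin alpha and 8 integrin beta subunits, and 5 laminin alpha, 3 laminin beta and 3 laminin gamma chains. Itga2b and Itgb2l fall outside this name pattern and were not counted. The levels come from RNA-seq of the cochlea, where sound is sensed in the inner ear, of mice on postnatal day 3. There were 3 libraries of genotype Plscr5-/- (KO 1 to KO 3) and 3 of wild-type mice (WT 1 to WT 3). The labels give no strain, no design of the knockout allele and no sex. They do not say whether a library came from 1 animal or from pooled cochleae, and p-values therefore measure just the spread among the libraries, which may in part be technical. The extraction text names a Pou4f3(Δ/+) line, which is the genotype of none of the libraries as labelled, and groups follow the genotype field.

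Integrins are heterodimers of an alpha and a beta subunit that span the cell membrane and link the extracellular matrix to the cytoskeleton. Laminins are heterotrimers of an alpha, a beta and a gamma chain and form the network on which a basement membrane is built. In the cochlea, basement membranes underlie the sensory epithelium and surround vessels and the Schwann cells of the auditory nerve, and Itga8 is known for a role in hair cell stereocilia.

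The region just upstream of a start site is shown for 3 laminin genes that stood at opposite ends among the libraries: Lama2 and Lamb1 were at their lowest in WT 3, and Lama5 was at its highest there. The sequences are from RefSeq on GRCm38.p6, whose promoter table held 22 of the 36 genes. For Lama2 and Lama5 they are the 250 bases before the start site, and for Lamb1 the 59 bases nearest to it were left out because they are annotated as exon. Each reads 5′ to 3′ on the gene's own strand. The positions are chr10:27616943-27617192, minus strand, for Lama2; chr12:31265043-31265233, plus strand, for Lamb1; and chr2:180225860-180226109, minus strand, for Lama5. Capitals mark every match to the GC box (GGGCGG or CCGCCC), the CCAAT box (CCAAT or ATTGG), the TATA box (TATAAA or TTTATA) or the AP-1 site (TGANTCA, which reads alike on both strands).
Lama2: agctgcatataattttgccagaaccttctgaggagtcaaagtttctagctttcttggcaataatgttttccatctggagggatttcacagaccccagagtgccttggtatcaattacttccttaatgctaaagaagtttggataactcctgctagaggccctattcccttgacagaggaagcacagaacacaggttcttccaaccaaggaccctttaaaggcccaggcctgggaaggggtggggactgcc
Lamb1: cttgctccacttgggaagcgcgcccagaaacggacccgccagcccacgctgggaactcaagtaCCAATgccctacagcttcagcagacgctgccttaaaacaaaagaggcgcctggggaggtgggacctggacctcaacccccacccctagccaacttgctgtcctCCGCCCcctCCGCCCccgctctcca
Lama5: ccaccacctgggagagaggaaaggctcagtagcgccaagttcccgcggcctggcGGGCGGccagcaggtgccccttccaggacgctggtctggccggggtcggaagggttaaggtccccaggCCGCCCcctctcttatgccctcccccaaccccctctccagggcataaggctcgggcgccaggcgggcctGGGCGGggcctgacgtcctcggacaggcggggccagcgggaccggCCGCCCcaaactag
The Lama2 window held none of the 4 motifs and had a GC content of 47.2%. The Lamb1 window of 191 bases held 2 GC boxes and 1 CCAAT box, with a GC content of 63.9%. The Lama5 window held 4 GC boxes, with a GC content of 72.4%. Among 32851 promoter windows cut to 250 bases, a GC box was present in 32.7%, a CCAAT box in 33.8%, a TATA box in 12.4% and an AP-1 site in 6.75%. Cut to the 191 bases of the Lamb1 window, the shares were 23.1%, 26.9%, 8.78% and 5.26%. No matches overlapped in the windows shown. They describe the letters only, and binding was not measured.

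Values are in TPM, which divides by transcript length and sums to the same total in each library, so levels of different genes can be set side by side. Sequencing depth is unknown, because TPM keeps no read totals, and no counting interval can be given. Errors are SD over the 3 libraries of a genotype unless named otherwise. Genotype was tested with limma on log2(TPM + 1) over the 17097 features that reached 1 TPM or more in 3 or more libraries. Log2 fold changes give the knockout relative to the wild type on that scale, where the change of a low gene comes out smaller than it is. Plscr5 itself was listed at 4.30, 3.69 and 5.01 TPM in KO 1 to KO 3 and at 14.53, 12.42 and 9.27 TPM in WT 1 to WT 3, with no overlap (log2 fold change -1.28, limma adjusted p = 0.29). Markers of cochlear cell types were present in every library, with summed levels of 10 hair cell genes between 341.5 and 411.4 TPM and of 11 supporting cell and otic epithelium genes between 7338 and 9636 TPM. WT 3 stood apart in nerve markers: 12 Schwann cell genes summed to 521.2 TPM there against 1313 to 2217 TPM elsewhere, and 10 neuronal genes to 256.4 TPM against 567.8 to 878.6 TPM. No marker of these 4 lists was listed at 0 in all libraries. In bulk tissue, fewer cells of a type and less RNA per cell cannot be told apart.

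Of the 36 genes, 32 passed the filter on low values, and none of them passed the test of genotype at an adjusted p of 0.05. In the same limma fit 0.0117% of all features tested (2 of 17097) passed. The smallest adjusted p among the integrin and laminin genes was 0.989. At an unadjusted p under 0.05 there was 1 gene on the higher side, Lamb1, and 0 on the lower side, where 2.15% of all features fell on the higher and 1.85% on the lower side. Which gene was at that level depended on the library left out. Without WT 3 or without KO 3 no gene was at that level, without KO 1 it was Lamb2 alone and without WT 1 Lama5 alone, both on the lower side, and without KO 2 it was Lamb1. Without WT 2 there were 4 (Lamb1, Lama4 and Lama2 higher, Itga8 lower). The adjusted threshold was passed by none in any of these fits. Knockout and wild-type libraries did not overlap for 2 genes, Itgb4 and Itgb6, both lower in the knockout, against 4.74% of all features lower, 4.60% higher and 9.33% in either direction. These shares are near or under the background and are no result about the genes. The median log2 fold change was -0.02 over the 32 genes, 0.00 over the integrin alpha subunits, -0.04 over the integrin beta subunits, -0.03 over the laminins and -0.01 over all features. The fold change was above 0 for 14 of 32 genes, or 43.8%, beside 46.6% of all features.

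The intervals show what size of difference in log2(TPM + 1) these libraries allow. The 95% confidence interval of the fold change lay within 2-fold in both directions for 29 of 32 genes (90.6%, against 91.5% of all features) and within 1.5-fold for 24 (75% against 72.4%). On this scale the 3 genes whose interval reached past 2-fold were Itga7, Itgb3 and Itgb8. For genes of a few TPM or less the added 1 narrows the interval, which then does not bound the change in TPM itself. With a pseudocount of 0.1, the SE was 0.34 in place of 0.191 for Lama3 and 0.311 in place of 0.234 for Lamb3. The plot of fold changes with their intervals sets the genes side by side.

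**Figure D1:**
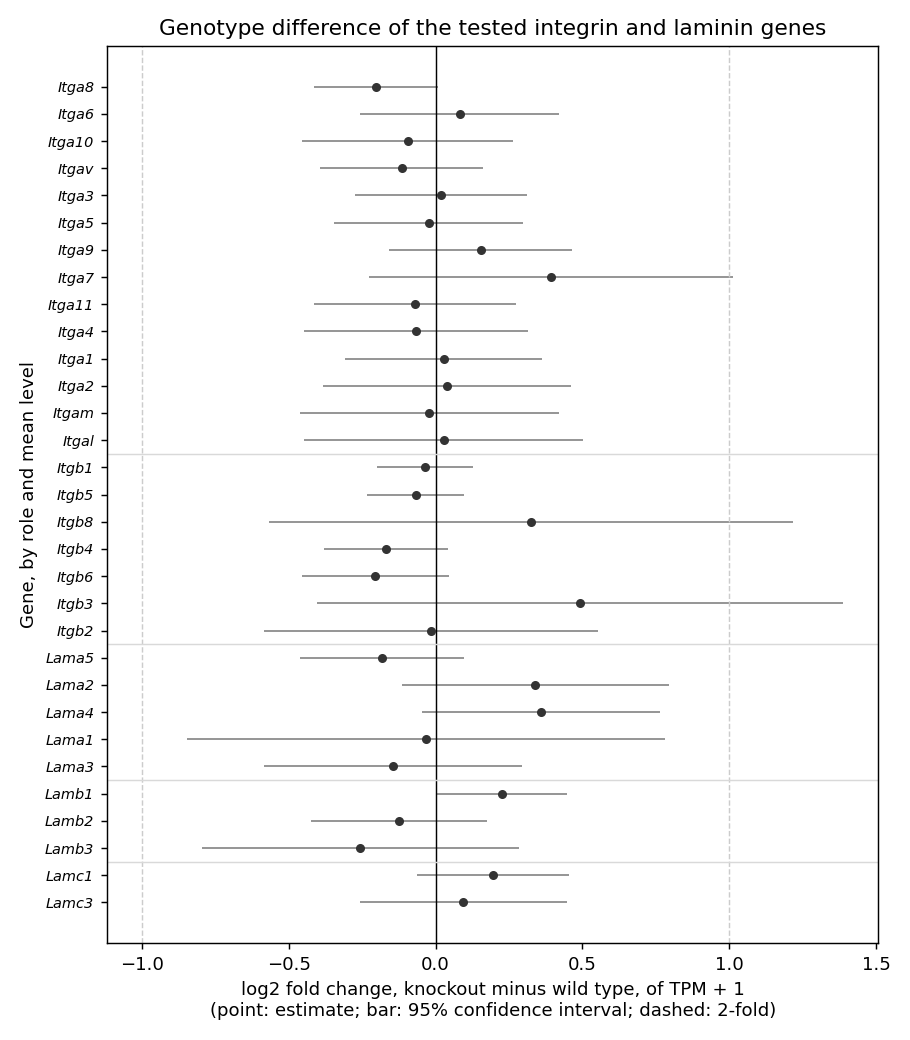
Log2 fold change (knockout minus wild type, on log2(TPM + 1)) of tested integrin and laminin genes; points are limma estimates from 3 against 3 libraries and bars are 95% confidence intervals. All intervals shown but that of Lamb1 cross 0, and none of the adjusted p-values is under 0.989.

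Integrin alpha subunits largely decide which ligand a heterodimer binds. The summed level of the 17 genes ran from 441.5 to 495.6 TPM over the 6 libraries, and Itga8 and Itga6 together made up 72.04% ± 1.95 (SD, n = 6) of it. Itga8, which pairs with Itgb1 and binds ligands such as nephronectin and fibronectin, was at 158.81, 180.9 and 181.11 TPM in KO 1 to KO 3 and at 203.08, 178.92 and 218.56 TPM in WT 1 to WT 3. WT 2 fell among the knockout libraries, and the other wild-type libraries lay above them. The means were 174 ± 12.8 and 200.2 ± 20 TPM, with a log2 fold change of -0.20 (SE 0.09, 95% interval -0.41 to 0.01, limma adjusted p = 0.989). With the nerve score, the mean centred log2 level of the neuronal and Schwann cell marker genes, as a covariate, the estimate was -0.08 (SE 0.089). The score was 0.60, 0.34 and 0.15 in KO 1 to KO 3 and 0.03, 0.17 and -1.31 in WT 1 to WT 3. It is partly tied to genotype and set mostly by WT 3. Estimates with this covariate, here and below, cannot tell nerve content from genotype. The Itga8 ligand nephronectin, encoded by Npnt and named here after its values were seen, was at 125 ± 20.98 TPM in the knockout, against 129 ± 16.5 TPM in the wild type. Itga8 shares 5.05% of its annotated exon bases with the antisense gene E030013I19Rik. Use of strand in the counting is not stated in the sources used here, so reads of the pair may not have been separated. In all, 12 integrin and laminin genes share exon bases with another gene. Among them are Itga4 (8.04%, with Cerkl), Itgb4 (7.66%, with B230344G16Rik) and Itgav (5.9%, with Gm13684), each with a gene on the opposite strand.

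Itga6, a laminin receptor subunit that pairs with Itgb1 or Itgb4, was at 179.12, 146.61 and 138.99 TPM in KO 1 to KO 3 and at 169.93, 152.22 and 118.93 TPM in WT 1 to WT 3. The genotypes overlapped, with the highest value in KO 1 and the lowest in WT 3. Its log2 fold change was 0.08 (SE 0.15), and -0.06 without WT 3. The ranges of Itga8 and Itga6 over the libraries overlapped, so these leading subunits were not separated in level. In 5 libraries Itga6 was 31.5% to 37.0% of the summed alpha level, and in WT 3 it was 24.8%.

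Next in order came Itga10, a collagen receptor subunit of cartilage, at 35.53, 32.46 and 33.33 TPM in KO 1 to KO 3 and at 29.38, 34.38 and 46.58 TPM in WT 1 to WT 3. WT 1 lay below the knockout libraries, WT 2 among them and WT 3 above them. This gave a log2 fold change of -0.10 (SE 0.16), or 0.08 without WT 3. The 8 cartilage genes listed as markers summed to 6885 TPM in WT 3 and to 5269 to 5780 TPM in the other libraries. Col2a1, Col9a1 and Cnmd made up most of these sums. They and Matn1 were highest in WT 3, while Acan, Matn3 and Snorc were highest elsewhere and Hapln1 was lowest in WT 3. The part of cartilage in the Itga10 value was not tested. Itga10 shares 33.5% of its exon bases with the predicted gene Gm42957, so its level is uncertain by however the counting divided those reads.

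Itgav, an alpha subunit of receptors for ligands with an RGD motif, ran from 20.86 to 27.42 TPM (log2 fold change -0.12, SE 0.12). It overlapped in level with Itga3, a laminin receptor subunit of epithelia, at 18.51 to 24.17 TPM. Below them Itga5, the fibronectin receptor subunit, ran from 10.63 to 14.64 TPM and Itga9 from 8.13 to 10.67 TPM (log2 fold change 0.15, SE 0.14). Itga11, a collagen receptor subunit of fibroblasts, ran from 6.14 to 8.35 TPM. Neighbours in the run from Itga5 through Itga9 and Itga7 to Itga11 overlapped in range.

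Itga7, a laminin receptor subunit known from muscle and Schwann cells, was at 11.17, 8.08 and 7.02 TPM in KO 1 to KO 3 and at 7.0, 8.81 and 3.98 TPM in WT 1 to WT 3. The genotypes overlapped, and WT 3 stood below the other libraries. The log2 fold change was 0.39 (SE 0.27, 95% interval -0.23 to 1.01, limma adjusted p = 0.989), and without WT 3 it was 0.12. The summed Schwann cell markers were also lowest in WT 3, although Sox10 was lowest in KO 2 and Ncmap in WT 1. Their part in the Itga7 values was not tested. The 7 skeletal muscle genes, of which 2 passed the filter, summed to 4.31 to 8.33 TPM with WT 3 inside that range, and the part of muscle in the Itga7 values was not tested. With the nerve score as a covariate, the Itga7 estimate was -0.09.

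Itga4, a fibronectin and VCAM-1 receptor subunit, and the collagen receptor subunits Itga1 and Itga2 lay between 2.66 and 5.18 TPM in every library. Log2 fold changes of the integrin alpha subunits described by range only (Itga3, Itga5, Itga11, Itga4, Itga1 and Itga2, with the leukocyte subunits Itgam and Itgal) ran from -0.07 to 0.04. The leukocyte subunits were the lowest of the integrins. Itgam and Itgal lay between 0.65 and 1.42 TPM and their beta subunit Itgb2 between 0.76 and 1.77 TPM, while Itgae (0.07 to 0.2 TPM), Itgax (listed at 0 to 0.05 TPM), Itgad (listed at 0 to 0.04 TPM) and Itgb7 (0.19 to 0.96 TPM) did not pass the filter. Over the same libraries 11 macrophage genes summed to 155 to 182.7 TPM and 7 lymphocyte genes to 2.27 to 3.88 TPM. Itgam shares 68.7% of its exon bases with the predicted gene Gm49368 and its level is likewise uncertain.

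**Figure D2:**
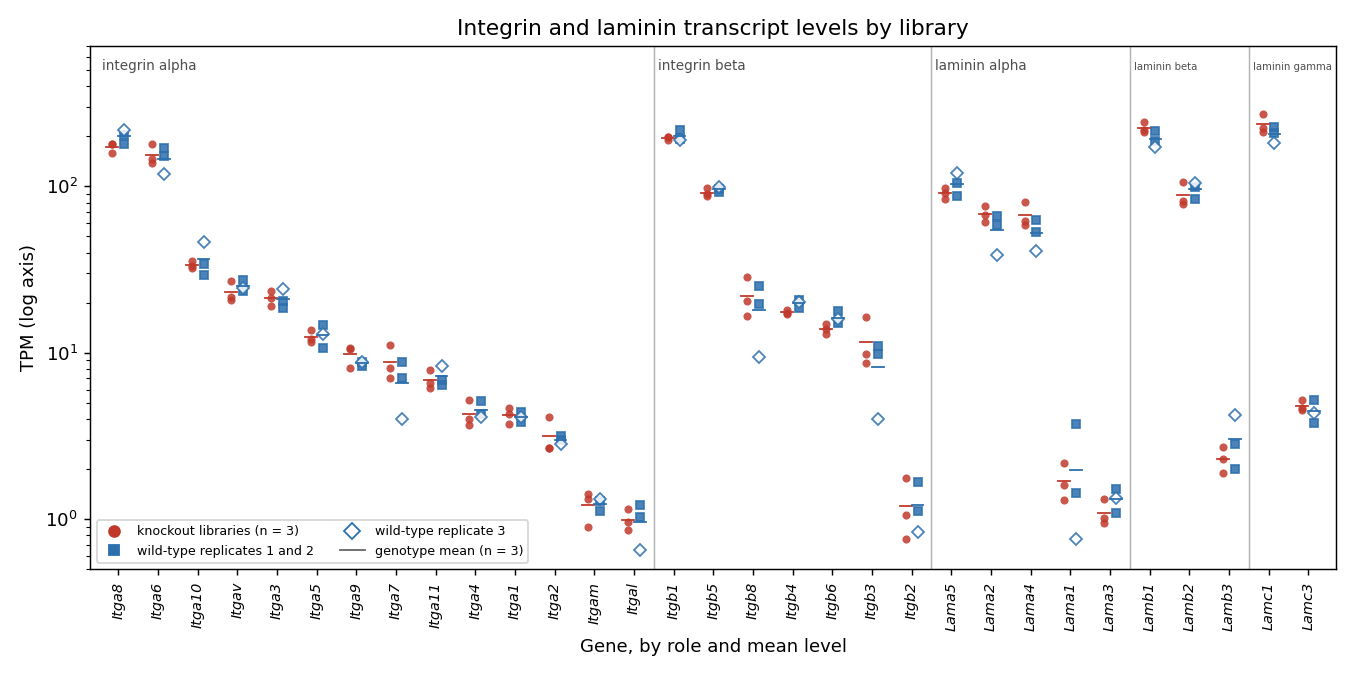
Level in TPM on a log axis of tested integrin and laminin genes in each library (circles: knockout; squares: WT 1 and WT 2; open diamonds: WT 3; lines: means of 3 libraries), ordered within each subunit class. Itga8, Itga6, Itgb1, Lamb1 and Lamc1 lie above 100 TPM in every library, and the leukocyte integrins Itgam, Itgal and Itgb2 lie under 2 TPM.

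Most integrin beta subunits, though not all, carry a cytoplasmic tail that binds talin and kindlin. Itgb1, the common partner of most alpha subunits, was the most abundant, at 198.72, 198.53 and 191.12 TPM in KO 1 to KO 3 and at 219.6, 193.53 and 191.07 TPM in WT 1 to WT 3. Apart from a higher WT 1, the libraries were close together, and the coefficient of variation over all 6 was 5.42%. The log2 fold change was -0.04 (SE 0.07, 95% interval -0.20 to 0.13). Itgb1 made up 55.5% ± 1.43 (SD, n = 6) of the summed beta level. The 12 alpha subunits that pair with it summed to 439.5 to 493.2 TPM, above the Itgb1 level in every library.

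Itgb5, Itgb6 and Itgb8 are partners of Itgav and are known for vitronectin binding (Itgb5) and for the activation of latent TGF-beta (Itgb6 and Itgb8). Itgb5 was the next most abundant beta subunit, at 87.74 to 99.15 TPM with a coefficient of variation of 4.87% and a log2 fold change of -0.07 (SE 0.07). Its level was 3.53 to 4.21 times that of Itgav. Itgb5, Itgb6 and Itgb8, which are not all of its partners, were together at 5.09 to 5.91 times the Itgav level, a ratio whose genotype ranges overlapped.

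Itgb6, an epithelial subunit, was at 13.85, 14.92 and 13.04 TPM in KO 1 to KO 3 and at 17.75, 15.03 and 15.92 TPM in WT 1 to WT 3. Every knockout library lay below every wild-type library, although KO 2 and WT 2 were close. The means were 13.9 ± 0.94 and 16.2 ± 1.39 TPM, and the log2 fold change was -0.21 (SE 0.11, 95% interval -0.46 to 0.05, limma adjusted p = 0.989). Itgb4, the partner of Itga6 in hemidesmosomes, was at 18.15, 17.01 and 17.36 TPM in KO 1 to KO 3 and at 18.59, 20.7 and 20.16 TPM in WT 1 to WT 3. Again no library of one genotype reached into the other, with KO 1 and WT 1 nearest. The means were 17.5 ± 0.58 and 19.8 ± 1.10 TPM, with a log2 fold change of -0.17 (SE 0.09, 95% interval -0.38 to 0.04, limma adjusted p = 0.989). With 1 library left out, the estimate ran from -0.26 to -0.14 for Itgb6 and from -0.21 to -0.14 for Itgb4. Ranges that do not overlap fix the sign of those estimates in advance. The nerve score covariate gave -0.22 for Itgb6 and -0.16 for Itgb4. The supporting cell and otic epithelium markers summed to 7338, 7598 and 7693 TPM in KO 1 to KO 3 and to 8174, 8009 and 9636 TPM in WT 1 to WT 3. Tectb and Tecta made up most of these sums. The fold change was below 0 for 11 of 11 marker genes, beside 9128 of all 17097 features. None passed the threshold, and 2 had an unadjusted p under 0.05 on the lower side, beside 1.85% of all features. The part of these markers in the values of the epithelial subunits was not tested.

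Itgb8 and Itgb3 were the least steady of the beta subunits above 4 TPM on average. Itgb8, known from glia and other cells of the nervous system, was at 28.43, 20.52 and 16.67 TPM in KO 1 to KO 3 and at 25.27, 19.72 and 9.48 TPM in WT 1 to WT 3. The genotypes were interleaved except for the low value in WT 3. The log2 fold change was 0.32 (SE 0.37, 95% interval -0.57 to 1.22); without WT 3 it was -0.06, and with the nerve score as a covariate it was -0.30.

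Itgb3, which pairs with Itgav in many cells and with Itga2b in platelets, was at 16.31, 9.80 and 8.63 TPM in KO 1 to KO 3 and at 9.78, 10.99 and 4.0 TPM in WT 1 to WT 3. KO 1 was the highest and WT 3 the lowest, with the other libraries between 8.63 and 10.99 TPM. The log2 fold change was 0.49 (SE 0.38, 95% interval -0.40 to 1.39, limma adjusted p = 0.989), and it was 0.10 without WT 3 and -0.18 with the nerve score as a covariate. The 5 platelet and megakaryocyte genes, of which 2 passed the filter and Pf4 made up most of the sum, summed to 27.78, 27.94 and 32.91 TPM in KO 1 to KO 3 and to 24.55, 28.11 and 31.46 TPM in WT 1 to WT 3, with KO 1 and WT 3 inside the range. Their part in the Itgb3 values was not tested. Itga2b was at 7.36 ± 1.46 TPM in knockout libraries, against 7.21 ± 0.81 TPM in wild-type ones.

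Laminin alpha chains carry the globular domains that integrins and dystroglycan bind. Lama5, Lama2 and Lama4 made up nearly all of the summed level of 201.6 to 257.5 TPM. Lama5, the chain of most epithelial and mature vascular basement membranes, was at 98.21, 83.75 and 91.21 TPM in KO 1 to KO 3 and at 87.02, 105.51 and 119.89 TPM in WT 1 to WT 3. The genotypes overlapped through WT 1, and WT 3 was the highest. The means were 91.1 ± 7.23 and 104 ± 16.5 TPM, and the log2 fold change was -0.18 (SE 0.12, limma adjusted p = 0.989), or -0.08 without WT 3 and -0.05 with the nerve score as a covariate.

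Lama2, the chain of muscle and Schwann cell basement membranes, was at 75.76, 67.75 and 60.8 TPM in KO 1 to KO 3 and at 58.99, 66.49 and 38.76 TPM in WT 1 to WT 3. WT 2 lay among the knockout libraries, and WT 3 was far below all others. The means were 68.1 ± 7.49 and 54.8 ± 14.3 TPM, with a log2 fold change of 0.34 (SE 0.19, 95% interval -0.12 to 0.80, limma adjusted p = 0.989). Lama4, a chain of vessels and of peripheral nerve, was at 80.43, 62.16 and 58.74 TPM in KO 1 to KO 3 and at 53.57, 62.63 and 40.89 TPM in WT 1 to WT 3. KO 1 was the highest and WT 3 the lowest, and WT 2 lay above KO 2 and KO 3. For Lama4 the log2 fold change was 0.36 (SE 0.17, 95% interval -0.05 to 0.77, limma adjusted p = 0.989). Without WT 3 the estimates were 0.11 for Lama2 and 0.20 for Lama4. With the nerve score as a covariate, which is partly tied to genotype, they were -0.03 (SE 0.091) and 0.06 (SE 0.125). The 9 endothelial genes summed to 322.9 to 344 TPM in knockout and 316.6 to 349.5 TPM in wild-type libraries, with the highest sum in WT 3. Emcn, highest in KO 2, made up most of these sums. Cdh5, Kdr, Tek, Tie1 and Cldn5 were highest in KO 1, Flt1 and Egfl7 in WT 3 and Pecam1 in WT 2. The median deviation of the list from the mean of the 6 libraries was 0.17 in KO 1 and 0.05 in WT 3. The part of vessels in the Lama4 values was not tested.

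The proportions of the main alpha chains differed between libraries. Lama5 made up 38.1%, 38.7% and 42.8% of the summed alpha level in the knockout and 43.0%, 44.1% and 59.5% in the wild type, and Lama4 made up 31.2%, 28.7% and 27.6% against 26.5%, 26.2% and 20.3%. For both shares the genotypes did not overlap, although KO 3 and WT 1 nearly met for Lama5. The ratio of Lama5 to Lama4 was accordingly 1.22, 1.35 and 1.55 in the knockout and 1.62, 1.69 and 2.93 in the wild type. The mean difference was -8.96 percentage points for the Lama5 share and 4.87 for the Lama4 share, and without WT 3 it was -3.64 and 2.86. These were 2 of 36 subunit shares computed, and shares of 1 sum move against each other, so no test was made. Lama1, a chain of early embryonic basement membranes, ran from 0.76 to 3.73 TPM with its highest value in WT 2. Lama3, the alpha chain of the hemidesmosome laminin, ran from 0.94 to 1.51 TPM with a log2 fold change of -0.14 (SE 0.19).

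**Figure D3:**
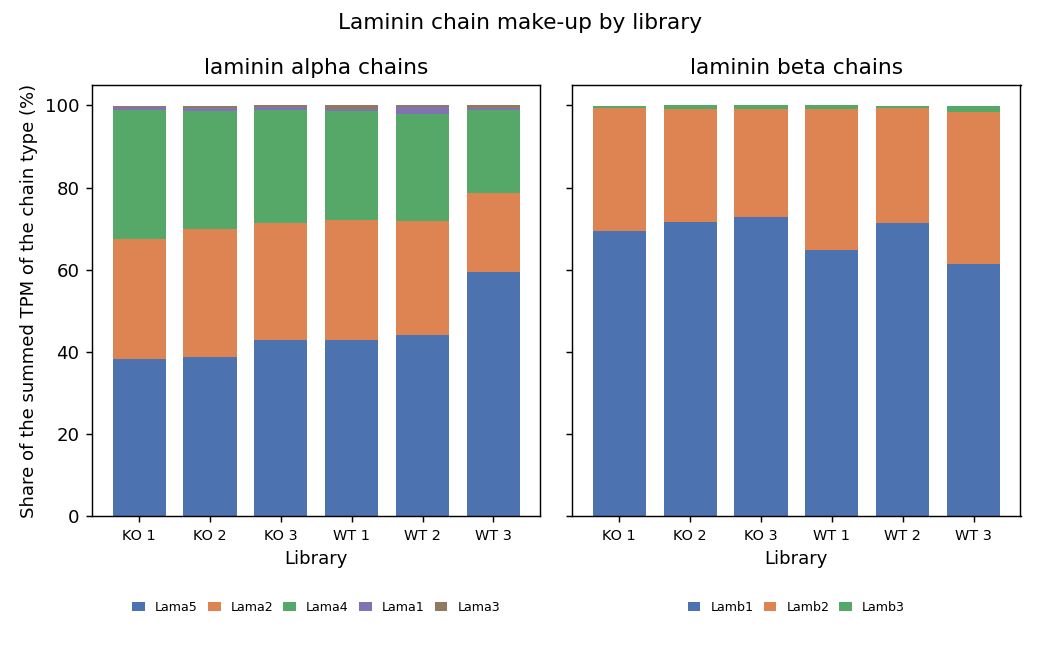
Share (%) of each chain in the summed TPM of its chain type, for laminin alpha and beta chains in the 3 knockout (KO) and 3 wild-type (WT) libraries. Lama5 is 59.5% in WT 3 and 38.1% to 44.1% in the other libraries, while Lamb1 is the main beta chain in each library.

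The beta and gamma chains Lamb1 and Lamc1, which enter most laminin trimers, were the most abundant laminin genes. Lamb1 was at 243.46, 211.53 and 217.99 TPM in KO 1 to KO 3 and at 188.54, 215.9 and 171.98 TPM in WT 1 to WT 3. WT 2 fell between KO 2 and KO 3, and the other wild-type libraries lay below all knockout ones. The means were 224 ± 16.9 and 192 ± 22.2 TPM, with a log2 fold change of 0.23 (SE 0.10, 95% interval 0.00 to 0.45, limma adjusted p = 0.989). Without WT 3 the estimate was 0.15. Lamc1 was at 271.71, 224.16 and 213.59 TPM in KO 1 to KO 3 and at 208.53, 227.07 and 182.61 TPM in WT 1 to WT 3. WT 2 was above KO 2 and KO 3, so the genotypes overlapped. Its log2 fold change was 0.20 (SE 0.11, limma adjusted p = 0.989) and 0.11 without WT 3. With the nerve score as a covariate the estimates were 0.09 for Lamb1 and 0.03 for Lamc1.

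Lamb2, the beta chain of synaptic and vascular laminins, was at 105.77, 81.19 and 78.71 TPM in KO 1 to KO 3 and at 99.32, 84.6 and 104.36 TPM in WT 1 to WT 3. KO 1 was the highest and the other knockout libraries were the lowest, with a log2 fold change of -0.12 (SE 0.13). Without KO 1 it was -0.26, without WT 2 it was -0.21, and without KO 2, KO 3 or WT 3 it was -0.07, -0.05 and -0.06. Unlike for Lamb1, WT 3 was not low for this chain, and the Lamb1 share of the beta chains was 61.3% in WT 3 and 64.9% to 72.8% in the other libraries. Lamc3 ran from 3.8 to 5.2 TPM with a log2 fold change of 0.09 (SE 0.15).

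Lamb3, a beta chain found with Lama3 in epithelial basement membranes, ran from 1.88 to 4.24 TPM. It was highest in WT 3 and lowest in KO 1, with a log2 fold change of -0.26 (SE 0.23), or -0.05 without WT 3 and 0.10 with the nerve score as a covariate. Among the hemidesmosome genes that act with Itgb4, the plakin Dst had a log2 fold change of 0.05 and Plec of 0.08, and the transmembrane collagen Col17a1 was at 0.06 to 0.75 TPM and was not tested.

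Across the family, WT 3 was the lowest library for 11 of 32 genes (34.4%, against 20.9% of all features) and the highest for 8 (25.0% against 21.6%). Relative to the median of the other libraries, its level on the log2 scale was -1.11 for Itgb3, -1.04 for Itgb8, -0.87 for Itga7, -0.76 for Lama2 and -0.59 for Lama4. It was 0.67 for Lamb3, 0.47 for Itga10 and 0.39 for Lama5. KO 1 was the highest library for 12 genes (37.5% against 25.9%), among them Lama2, Lama4, Lamb1, Lamc1 and Itga6. The summed Schwann cell and neuronal markers were also highest there, although Ncmap was highest in KO 2 and Cdh19 in WT 1. The median deviation of the endothelial markers was likewise highest in KO 1. The part of these cell types in the values was not tested. The plot of library deviations shows the genes low in WT 3 beside those high in it. The median coefficient of variation over the 6 libraries was 13.9% for the 32 genes and 12.3% for all features.

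**Figure D4:**
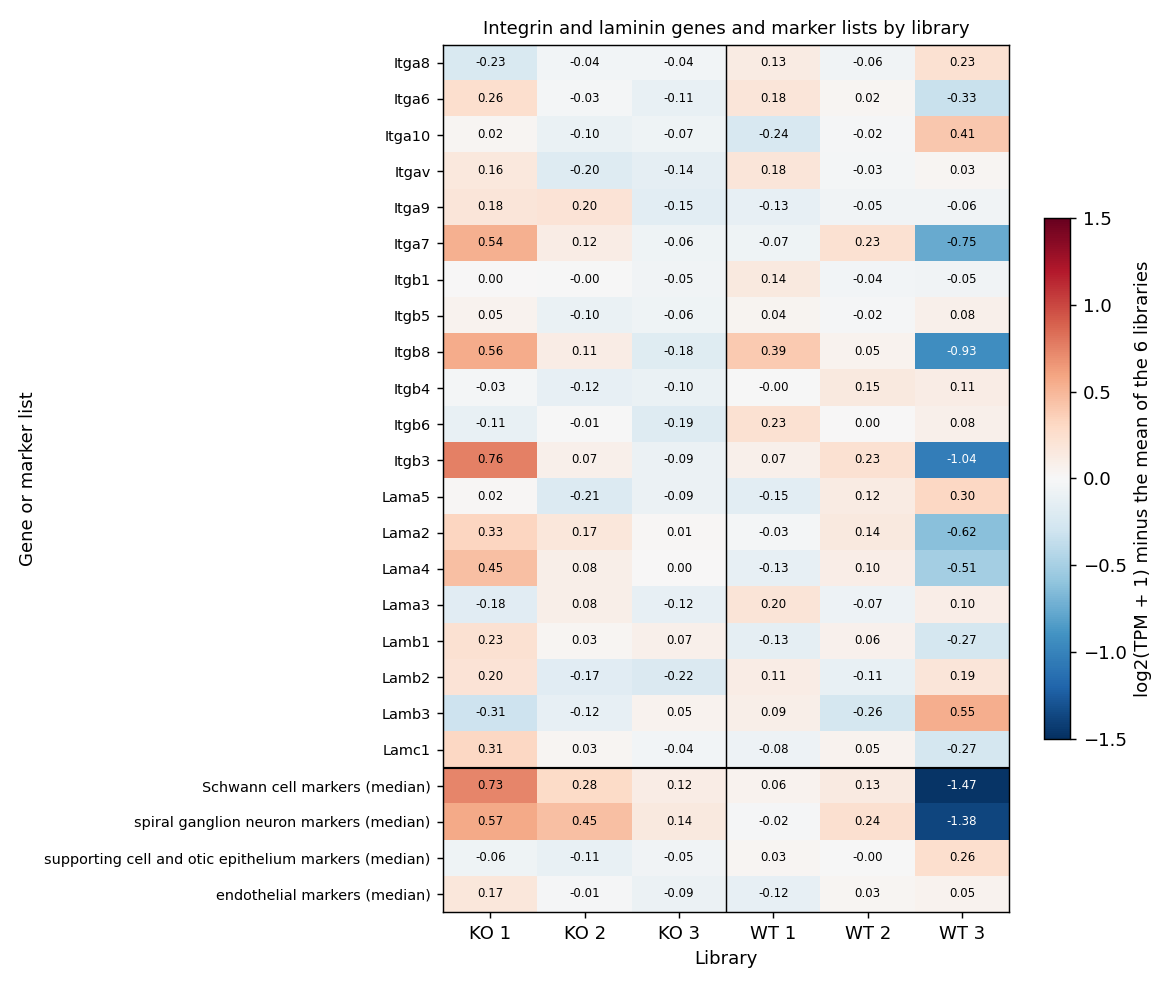
Deviation of 20 integrin and laminin genes, and the median deviation of the genes of 4 marker lists, from the mean of the 6 libraries, in log2(TPM + 1) units (colour and printed value), by library. In WT 3, Itgb3 (-1.04), Itgb8 (-0.93), Itga7 (-0.75), Lama2 (-0.62) and Lama4 (-0.51) are low, as are the Schwann cell (-1.47) and neuron (-1.38) markers, and Lamb3 (0.55), Itga10 (0.41) and Lama5 (0.30) are high.

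Among 108 genes of the surrounding pathways in 6 lists, 105 were tested, 0 passed the threshold, and 55 lay above and 50 below 0. At an unadjusted p under 0.05 there was 1 on the higher side (Nid1) and 3 on the lower (Dtna, Smoc2 and Tnc), and 10 did not overlap between genotypes, where the background shares were 2.15%, 1.85% and 9.33%. The 33 tested activators and adaptors, which join integrin tails to actin, had a median log2 fold change of 0.03, with 19 above and 14 below 0. Their smallest p-values belonged to the kinase Fyn (0.32), the tensin Tns1 (-0.17) and Sharpin (0.16), an inhibitor of integrin activation. Of 7 genes for tetraspanins and Cd47, membrane proteins that associate with integrins, 4 lay above and 3 below 0. Cd151, the partner of laminin-binding integrins, was at 103 ± 2.21 TPM in knockout and 97.7 ± 0.12 TPM in wild-type libraries, a log2 fold change of 0.07. Cd63 stood at 0.05 and Cd9 at -0.04.

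Of the 21 genes of the dystroglycan complex and other laminin receptors, 11 lay above and 10 below 0. Dtna, the dystrobrevin of that complex, was at 35.59, 42.48 and 39.12 TPM in KO 1 to KO 3 and at 46.44, 47.77 and 45.44 TPM in WT 1 to WT 3. All knockout libraries were below all wild-type ones, with a log2 fold change of -0.25 (limma adjusted p = 0.989). The syndecan Sdc2, a cell surface proteoglycan, had a log2 fold change of -0.11. Dystroglycan itself, Dag1, named after its values were seen, was at 118 ± 15.7 and 114 ± 6.18 TPM.

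Of the 23 other basement membrane genes, 8 lay above and 15 below 0, with a median of -0.05. Nid1, the nidogen that binds the laminin gamma chain, was at 100.31, 82.72 and 76.83 TPM in KO 1 to KO 3 and at 68.08, 78.55 and 62.54 TPM in WT 1 to WT 3. The genotypes overlapped through WT 2 and KO 3, and WT 3 was the lowest, as for Lamc1. Its log2 fold change was 0.31 (limma adjusted p = 0.989). Smoc2, a SPARC-related matrix protein, went the other way at 142 ± 8.34 against 163 ± 13.8 TPM (log2 fold change -0.19), as did Col18a1 at 257 ± 6.89 against 288 ± 26.0 TPM (-0.16). Neither Smoc2 nor Col18a1 overlapped between genotypes, and neither passed the threshold after adjustment. Of 19 tested other integrin ligands, 11 lay above and 8 below 0, and the smallest p-values belonged to tenascin C, Tnc, at 139 ± 11.0 against 162 ± 12.3 TPM (log2 fold change -0.22), Thbs1 (-0.24) and Thbs2 (0.20).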

How the data were processed

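Total RNA of the cochlea was sequenced in 6 libraries, 3 per genotype. The authors deposited 1 table per library with values in TPM, a unit read from the values, which sum to 1000000 per library. DESeq2 and the build mm8 are named, without a role, in the submitters' processing notes. Aligner, quantifier and annotation: not given in the sources used here. Symbols, biotypes and exons came from GENCODE M21 (GRCm38), which named 52135 IDs, and no coordinates are given except those of RefSeq promoter windows.

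The 17097 features that reached 1 TPM or more in 3 or more libraries were tested with limma 3.58.1 in R 4.3.3 on log2(TPM + 1), with an intensity trend and robust moderation, two-sided, with Benjamini-Hochberg adjustment over all of them and a threshold of 0.05. The fit was tested on simulated data. Members and gene lists were chosen with earlier results of these data known. Named in full were, per class (beta and gamma laminins as 1 class), the 4 tested genes with the smallest p and the 3 most abundant, and the 3 smallest p of each pathway list, except that some items these rules cover are not reported here, so that fewer than 3 stand for a list. Other scalings, filters, pseudocounts and variance settings, a nerve score covariate, a replicate block and each library left out in turn were alternatives.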

Additional observations from a re-analysis of the deposited data

How the results depend on the processing

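No integrin, laminin or pathway gene passed the adjusted threshold under any of the 18 alternatives, and over them the adjusted p of the 20 named genes ran from 0.669 to 1. Changes of filter or variance setting, the restriction to protein-coding genes and the replicate block leave the estimate unchanged and could not reverse its sign. Counting these checks, the direction held in 346 of 358 checks of the named genes. It reversed with the nerve score as a covariate for Itga10 (0.143), Itga6 (-0.163), Itga7 (-0.085), Itgb3 (-0.180), Itgb8 (-0.302), Lama2 (-0.027) and Lamb3 (0.101), without WT 3 for Itga10 (0.084), Itga6 (-0.062) and Itgb8 (-0.061), without KO 1 for Itga6 (-0.027) and without WT 1 for Itgb1 (0.028). With 1 library left out, estimates for Itga10 ran from -0.24 to 0.084 and for Itgb8 from -0.061 to 0.602. The cause was not tested.

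Against 2 of all features passing, 1 passed with median-ratio scaling, 1 without haemoglobin and mitochondrial genes, 6 with the nerve covariate, and 0 with no filter or no intensity trend, with 0 (without KO 1, KO 3 or WT 1) to 3 when 1 library was left out. Features with unadjusted p under 0.05, 684 of them, became 1168 with the nerve covariate and 354 (without KO 2) to 1046 (without WT 2) with 1 library left out. The 1 integrin or laminin gene at that level, Lamb1, became 0 with the nerve covariate, no filter, no trend or no robust moderation, and 0 (without KO 3 or WT 3) to 4 (without WT 2: Lamb1, Lama4, Lama2 and Itga8) with 1 library left out. Lamb1 was also lost without KO 1, where Lamb2 (-0.257) was the 1 gene, and without WT 1, where it was Lama5 (-0.305). The 4 pathway genes became 1 with no trend, 8 with quantile normalization and 1 (without KO 2) to 8 (without WT 2) with 1 library left out. The median log2 fold change of integrin beta genes was -0.180 with the nerve covariate and -0.072 to 0.028 with 1 library left out. That of laminins was 0.196 with a filter at a mean of 5 TPM, which leaves 7 chains, and -0.082 to 0.192 (without WT 2) with 1 library left out. The cause of the other shifts was not tested.

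Libraries numbered 1 and 3 deviated together across the genotypes and those numbered 2 did not (correlations of 0.19, -0.05 and 0.24), so the numbers were not taken as pairs. With the replicate block 0 of all features passed and 1250 had an unadjusted p under 0.05, as did 2 integrin or laminin genes (Lama4 and Lama2) and 8 pathway genes. Not every library correlated best with its own number. TPM keeps no depth, so the precision of low genes is unknown.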
